A study of Mus musculus with 30 samples.

Results

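Mouse aortic smooth muscle cells transfected with a plasmid for total CASC15 were compared with cells transfected with a control plasmid. The comparison uses 6 of the 30 libraries of the series, chosen by their labels: 3 for overexpression of total CASC15 and 3 for the overexpression control, all from run 2. Batches P17, P18 and P19 each gave 1 library to each group, so every overexpression library has a control of its own batch. Of 78334 genes listed in the deposited table, 15350 had enough counts to be tested, and all of these are described here.

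The cells of both groups received no agonist, were kept in serum-free medium for 48 h, and carried plasmid at 1 ug/mL for at least 24 h before harvest. Both groups thus share the transfection. The labels do not name the plasmid backbone, the control insert, the transcript meant by "total" CASC15 or the animals the cells came from. The growth protocol speaks of mouse and rat cells, while every library is labelled mouse. The titles number the CASC target differently in each overexpression replicate, and the libraries were therefore grouped by their library names. No label says that the batches are separate animals, so the p-values measure only the spread between these samples.

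CASC15 is a long noncoding RNA whose gene lies next to Sox4, which encodes a developmental transcription factor. Vascular smooth muscle cells can leave the contractile state, divide, remodel their matrix and secrete inflammatory mediators. Much of that inflammatory output runs through NF-kB, which is held in the cytoplasm by IkB proteins and, once released, switches on cytokines as well as its own inhibitors. Receptors that share gp130 act in parallel through STAT3, and C/EBP proteins act with both on acute phase genes.

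The targeted RNA was checked first. It is listed as 2610307P16Rik, the mouse symbol taken here as CASC15 from general knowledge, since no table used here pairs the names. In the order P17, P18 and P19, which is kept throughout, its level was 8.69, 6.55 and 4.03 CPM (reads scaled to library size with TMM) in the control libraries. It was 604, 916 and 629 CPM in the overexpression libraries. All 3 overexpression libraries carried far more of the transcript than any control, and the groups did not overlap. The log2 fold change was 6.81 ± 0.26 (SE), with an adjusted p of 2.68e-05 by edgeR's quasi-likelihood test with the batch as a replicate block. Without batch P18 the adjusted p was 0.0556. Reads from the plasmid and from the chromosomal gene cannot be told apart in this table. Sox4, the neighbouring gene, was at 1568, 1231 and 677 CPM in the controls and at 695, 488 and 353 CPM with overexpression. It fell by 1.15 ± 0.09 on the log2 scale (adjusted p 2.6e-05). The group ranges overlapped because the level differed between batches, and without the replicate block the adjusted p was 0.129.

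With the replicate block, 2721 of the 15350 genes were called at an adjusted p under 0.05, which is 17.7%. Of these, 1443 were higher (9.4% of all tested) and 1278 were lower (8.33%) with overexpression. The median log2 fold change of all genes was 0.002, with changes in both directions. Most were modest: called genes had a median size of 0.539 on the log2 scale, sign aside, and 584 passed 1, of which 288 were higher and 296 lower. In 2707 of the 2721 genes the direction was the same in all 3 batches, which a test within batches favours. The 2 groups did not overlap in 1426 of the called genes, beside 2767 non-overlapping genes among all tested (18%), which were higher in 9.61% and lower in 8.42% of the genes tested. Without the replicate block 253 genes were called (1.65%), 168 higher and 85 lower, and all 253 were among the 2721. The count also rested on single libraries: it was 1311 without the P17 control, 1284 without the P18 control, 1536 without the P17 overexpression library and 1647 without that of P18.

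**Figure D1:**
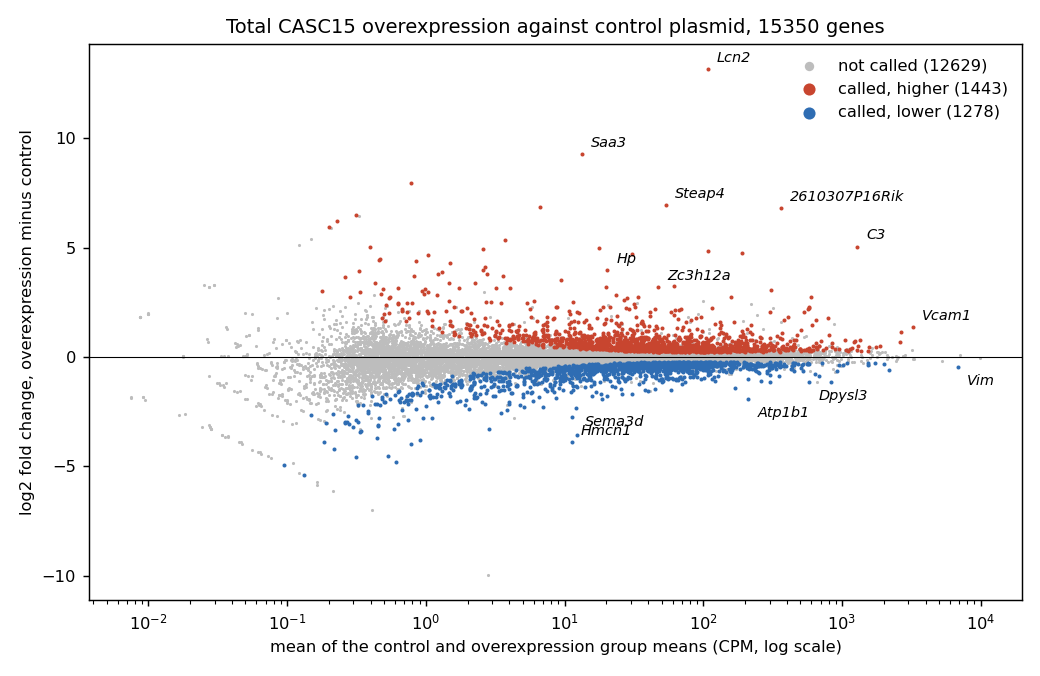
Log2 fold change of each of the 15350 tested genes (vertical axis, overexpression minus control plasmid) against its mean level in CPM (horizontal axis, log scale), with genes called higher in red, called lower in blue and the rest in grey. Lcn2, Saa3, Steap4 and the targeted RNA 2610307P16Rik stand above the cloud, and the 1443 higher and 1278 lower genes lie on both sides of 0.

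Total counts ran from 18007199 to 21715437 per library in the controls and from 18045203 to 20486902 with overexpression. Mitochondrial transcripts took 1.26%, 1.28% and 1.11% of the counts in the controls and 0.764%, 1.16% and 0.991% with overexpression, lower in each batch. The part of this in the results was not tested. The first principal component of the 6 libraries held 48.7% of the variance, with the P19 control apart from the other 2 controls (scores of 36.1 against -58.5 and -44.4) and the P19 overexpression library apart from its own group (64.8 against -9.4 and 11.4). No pair of libraries of a group agreed within counting noise (chi-square per degree of freedom 32.1 to 74.6).

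Acute phase genes showed the largest rises. Of 29 acute phase genes listed, 13 had enough counts to be tested. Of these 13, 9 were called higher and none lower, with a median log2 fold change of 3.97 against 0.002 for all genes. Genes near silent in the controls, such as Lcn2 and Saa3, had enough counts only through the overexpression libraries. The count and the median therefore lean toward genes that rise. Lcn2 encodes lipocalin 2, a secreted protein that binds iron-carrying siderophores. It had 1 count in total over the 3 control libraries and stood at 175, 310 and 164 CPM with overexpression. The ratio of the count totals, scaled for library size, was 12300, with a 95% interval from counting of 2200 to 485000, and the adjusted p was 3.95e-08. Saa3, an acute phase apolipoprotein made outside the liver, had 2 counts in total in the controls and 8.09, 18.8 and 52.9 CPM with overexpression, a ratio of 775 (214 to 6400). Its adjusted p was 7.3e-07, but it missed the threshold with DESeq2. Both genes were near silent in every control library and present in every overexpression library.

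Steap4, a metalloreductase of iron and copper handling, was at 0.585, 0.55 and 1.53 CPM in the controls and at 84.3, 130 and 107 CPM with overexpression, a log2 fold change of 6.92 ± 0.23 (adjusted p 4.14e-07). Hp, which encodes haptoglobin, a scavenger of free haemoglobin, rose from 2.38 ± 0.55 to 38.3 ± 11.7 CPM (SD, n = 3; adjusted p 1.86e-06 in edgeR). Vnn3, a vanin pantetheinase, rose from 2.38 ± 1.9 to 58.3 ± 7.53 CPM (adjusted p 0.00062 in edgeR, and 0.199 without batch P18). Cp, which encodes the copper-carrying ferroxidase ceruloplasmin, rose from 65.9, 101 and 199 CPM to 325, 649 and 462 CPM (log2 fold change 2.07 ± 0.3, adjusted p 0.0103). The increase of Cp was smallest in P19, whose control was already highest, and its adjusted p became 0.0514 without the P17 control, 0.0574 without the replicate block, 0.25 without batch P17 and 0.264 without batch P18. Of the acute phase list, 7 genes were called without the replicate block and 5 with DESeq2.

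The promoters of 3 of these genes are shown because each holds the letters TTGCNNAA, a core found in sites that C/EBP proteins can bind. The 250 bases before the gene start were taken from RefSeq (build GRCm38.p6) and are written 5′ to 3′ along the gene, with matches in capitals. Both strands were searched. The match occurs in 9.56% of 32851 promoters, in all 5 of the 10 largest rises that had an entry (C3, Lcn2, Saa3, Steap4 and Vnn3), and in 1 of 8 of the 10 largest falls. The percentage is over promoter entries, whereas a gene counted if any of its entries matched. The motifs and promoters were picked after the values had been seen, and a match is a description of the sequence only. The Lcn2 window is chr2:32387740-32387989 on the minus strand and the Saa3 window chr7:46715677-46715926 on the minus strand. The Steap4 window is chr5:7960222-7960471 on the plus strand, where the capitals also mark 2 matches to the kappaB consensus near its 5′ end.
Lcn2: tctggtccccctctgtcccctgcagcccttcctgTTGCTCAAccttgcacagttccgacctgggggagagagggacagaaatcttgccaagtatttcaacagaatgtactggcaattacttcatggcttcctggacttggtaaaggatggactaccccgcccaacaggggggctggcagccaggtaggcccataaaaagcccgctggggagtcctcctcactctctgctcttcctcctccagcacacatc
Saa3: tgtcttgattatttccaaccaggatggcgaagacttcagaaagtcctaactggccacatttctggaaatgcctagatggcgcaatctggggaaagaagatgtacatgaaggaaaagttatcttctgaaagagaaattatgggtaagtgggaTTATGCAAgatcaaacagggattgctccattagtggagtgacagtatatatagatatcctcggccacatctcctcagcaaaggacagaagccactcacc
Steap4: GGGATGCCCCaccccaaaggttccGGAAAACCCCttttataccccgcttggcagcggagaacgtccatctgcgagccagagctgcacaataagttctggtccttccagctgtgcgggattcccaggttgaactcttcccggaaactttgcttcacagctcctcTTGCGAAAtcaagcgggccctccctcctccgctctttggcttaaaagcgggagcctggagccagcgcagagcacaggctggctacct

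Most genes tested of the NF-kB pathway were higher. Of 27 tested, 18 were called higher, none lower and 9 not, with a median log2 fold change of 0.71, and 12 were called without the replicate block. Among the subunits, Relb rose from 20.2 ± 0.67 to 54.4 ± 8.38 CPM, with an adjusted p of 1.06e-05 in edgeR. Nfkb1 rose by 0.78 ± 0.09 and Nfkb2 by 0.71 ± 0.07 on the log2 scale (adjusted p 0.000273 and 0.00014). Rela, which encodes the p65 subunit, was at 177 ± 9.56 CPM in the controls and 191 ± 5.37 CPM with overexpression and was not called in edgeR (adjusted p 0.323). Some of these genes were named after their values were seen, namely Relb, Nfkb1, Nfkb2, Nfkbia, Tnfaip3 and Zc3h12a.

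Nfkbia encodes IkB alpha, the inhibitor that NF-kB induces to shut itself off. It was at 43.1, 37.6 and 35.5 CPM in the controls and at 134, 140 and 101 CPM with overexpression (log2 fold change 1.68 ± 0.09, adjusted p 1.86e-06). Nfkbie, another IkB, rose from 7.82 ± 1.01 to 26.7 ± 1.28 CPM, with an adjusted p of 8.51e-06 in edgeR. Nfkbiz, a nuclear IkB that helps switch on secondary response genes, was at 47.3, 47.4 and 31.9 CPM in the controls and at 166, 174 and 111 CPM with overexpression (log2 fold change 1.83 ± 0.09, adjusted p 7.3e-07). In each of these 3 genes the lowest overexpression library was above the highest control.

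Bcl3, a nuclear partner of the p50 and p52 subunits, had replicates that lay close together: 9.95, 8.75 and 10.5 CPM in the controls and 44.4, 45.1 and 46.1 CPM with overexpression. Its log2 fold change was 2.21 ± 0.1 (adjusted p 3.58e-07). Tnip1, which works with the deubiquitinase A20, rose by 1.1 ± 0.08 on the log2 scale (adjusted p 1.42e-05). Tnfaip3, which encodes A20 itself, stood at 36, 55.1 and 148 CPM in the controls and at 131, 183 and 254 CPM with overexpression. The ranges overlapped through the P19 control, and the adjusted p was 0.0069 with the replicate block and 0.257 without it. It was 0.0643 without batch P17 and 0.356 without batch P18.

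Zc3h12a encodes Regnase-1, an RNase that degrades inflammatory transcripts. It had the lowest adjusted p of all genes tested (1.22e-08). Its level was 7.79, 9.9 and 10.6 CPM in the controls and 78, 91.6 and 85.4 CPM with overexpression, a log2 fold change of 3.18 ± 0.09. The step from control to overexpression was nearly the same in every batch, at 3.31, 3.2 and 3 on the log2 scale.

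The promoters of Nfkbia and Tnip1 are shown for their match to the kappaB consensus, the site family that NF-kB dimers bind. Of the 18 genes of the list called higher, 14 had a RefSeq promoter, and 9 of those held a match on either strand (Cyld, Nfkb2, Nfkbia, Nfkbie, Rel, Tnfaip3, Tnip1, Tnip3 and Traf3), beside 7.25% of all promoters. That percentage is over promoter entries, while a gene counted if any of its entries matched. Uncalled genes of the list were not counted, so the share is not particular to the called ones. None of the 14 held TTGCNNAA. The Nfkbia window is chr12:55492648-55492897 and the Tnip1 window chr11:54962941-54963190, both on the minus strand of GRCm38.p6.
Nfkbia: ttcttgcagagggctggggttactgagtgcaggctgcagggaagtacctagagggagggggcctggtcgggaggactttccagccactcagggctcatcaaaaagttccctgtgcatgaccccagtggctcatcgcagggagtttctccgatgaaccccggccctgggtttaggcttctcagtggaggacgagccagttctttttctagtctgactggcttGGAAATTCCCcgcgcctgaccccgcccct
Tnip1: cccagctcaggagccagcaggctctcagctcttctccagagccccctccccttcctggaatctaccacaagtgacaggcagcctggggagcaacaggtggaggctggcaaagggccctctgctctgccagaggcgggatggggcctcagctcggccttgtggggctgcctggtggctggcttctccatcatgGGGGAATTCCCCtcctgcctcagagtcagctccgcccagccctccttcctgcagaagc

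Genes of the IL-6 and STAT3 pathway also moved mostly upward. Of 20 tested, 12 were called higher and 1 lower, with a median log2 fold change of 0.45, and 5 were called without the replicate block. The ligand Il6 was scarce, at 0.045, 0.385 and 0.737 CPM in the controls and 1.5, 3.65 and 4.16 CPM with overexpression (adjusted p 0.00226, and 0.132 without the replicate block). Receptor chains rose from higher levels. Osmr, the oncostatin M receptor, went from 42.8, 61.3 and 99.2 CPM to 140, 230 and 224 CPM (log2 fold change 1.6 ± 0.13, adjusted p 0.000108). Il6st, which encodes the shared chain gp130, went from 768 ± 69.9 to 1332 ± 246 CPM, with an adjusted p of 0.00178 in edgeR (0.0875 without batch P18). Lifr, the leukaemia inhibitory factor receptor, rose by 1.44 ± 0.09 on the log2 scale (adjusted p 5.69e-06, and 0.255 without the replicate block). Its level differed between batches more than between groups, from 8.92 CPM in the P17 control to 32.5 CPM in that of P19.

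Downstream, the transcription factor Cebpd had one of the larger changes outside the acute phase genes. It stood at 29.1, 38.1 and 58.7 CPM in the controls and at 255, 310 and 254 CPM with overexpression (log2 fold change 2.75 ± 0.2, adjusted p 0.000348, and 0.17 without batch P18). Its relative Cebpb, named after its value was seen, rose by 1.14 ± 0.1 (adjusted p 3.35e-05). Stat3 rose by 0.4 ± 0.09 (adjusted p 0.00952), and its adjusted p was 0.0673 without the P17 control, 0.105 without the replicate block, 0.204 without batch P17 and 0.0591 without batch P18.

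Receptors and ligands that act upstream of NF-kB were also examined. Of 25 genes of IL-1, TNF and Toll-like receptor signalling, 7 were called higher and 3 lower, beside 9.4% and 8.33% of all genes tested. The median log2 fold change of these 25 genes was 0.14. Without the replicate block 6 were called higher and none lower, and without batch P17 the numbers were the same. Tlr2, the receptor for bacterial lipoproteins, went from 17.6, 23.1 and 27.4 CPM to 76.1, 116 and 88.4 CPM (log2 fold change 2.05 ± 0.14, adjusted p 3.35e-05). Map3k8, a kinase that links these receptors to ERK, rose by 1.59 ± 0.2 (adjusted p 0.000452). Cd14, a Toll-like co-receptor, rose by 0.8 ± 0.12, and Tnfrsf1b, a TNF receptor, by 0.75 ± 0.08 (adjusted p 0.00129 and 0.000206). All 4 also passed without the replicate block. Il33, a nuclear alarmin, fell by 0.61 ± 0.14 (adjusted p 0.0119, 0.104 without the replicate block, 0.0555 without batch P17 and 0.0552 without batch P19). Il17rd, a receptor-like inhibitor of growth factor signalling, fell by 0.87 ± 0.145 (adjusted p 0.00232, 0.254 without the replicate block and 0.0742 without batch P17).

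Most chemokines and adhesion molecules tested were called. Of 37 listed, 21 had enough counts to be tested. Of these 21, 17 were called higher and 1 lower, with a median log2 fold change of 2.47. Members scarce in the controls could enter the test through the overexpression libraries alone, so these values lean toward genes that rise. Cxcl5, a neutrophil attractant, was at 1.26, 1.98 and 0.113 CPM in the controls and at 41.9, 53.8 and 7.53 CPM with overexpression. The level in P19 was far below that of the other batches in both groups. The rise within each batch was 4.95, 4.69 and 5.16 on log2 CPM with a prior count of 2 (edgeR adjusted p 1.65e-07). The P19 control had 2 counts, so the rise in P19 is shrunk by the prior count and imprecise. Ccl2, the monocyte attractant MCP-1, was at 3.74, 5.78 and 49.3 CPM in the controls and at 155, 331 and 601 CPM with overexpression (log2 fold change 4.76 ± 0.54, adjusted p 0.00772). Here the P19 control was the highest of the controls. Ccl7, its neighbour in the chemokine cluster, went from 1.62, 3.3 and 24.5 CPM to 103, 208 and 302 CPM (adjusted p 0.00952). Without the replicate block the adjusted p was 0.0739 for Ccl2 and 0.0508 for Ccl7. Both calls were also lost without batch P17 (0.343 and 0.347) and without batch P18 (0.282 and 0.324).

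Cxcl16, a membrane-bound chemokine, rose from 3.38 ± 0.51 to 19.5 ± 3.93 CPM, and Ackr3, a scavenger receptor for CXCL12, from 7.31 ± 1.24 to 48.9 ± 17.6 CPM. Both were named after their values were seen, and both passed without the replicate block (edgeR adjusted p 0.00138 and 0.00106). Cxcl12 itself, the chemokine with the highest level, was at 2528 ± 260 CPM in the controls and 2436 ± 526 CPM with overexpression and was not called in edgeR (adjusted p 0.677). Vcam1, a leukocyte adhesion molecule and one of the most abundant transcripts that changed, went from 1318, 1909 and 2238 CPM to 4317, 5569 and 4131 CPM (log2 fold change 1.38 ± 0.16, adjusted p 0.000515, and 0.105 without batch P18). The lowest overexpression library was above the highest control. Cxcl15 was the chemokine called lower, by 0.38 ± 0.08 (adjusted p 0.0106), a call lost without the P17 overexpression library (0.0664) and without the replicate block (0.555). The number of chemokines and adhesion molecules called higher was 11 at the lowest when 1 library was left out, with either P18 library moving it most. It was 7 without the replicate block, 11 without batch P17 and 5 without batch P18.

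**Figure D2:**
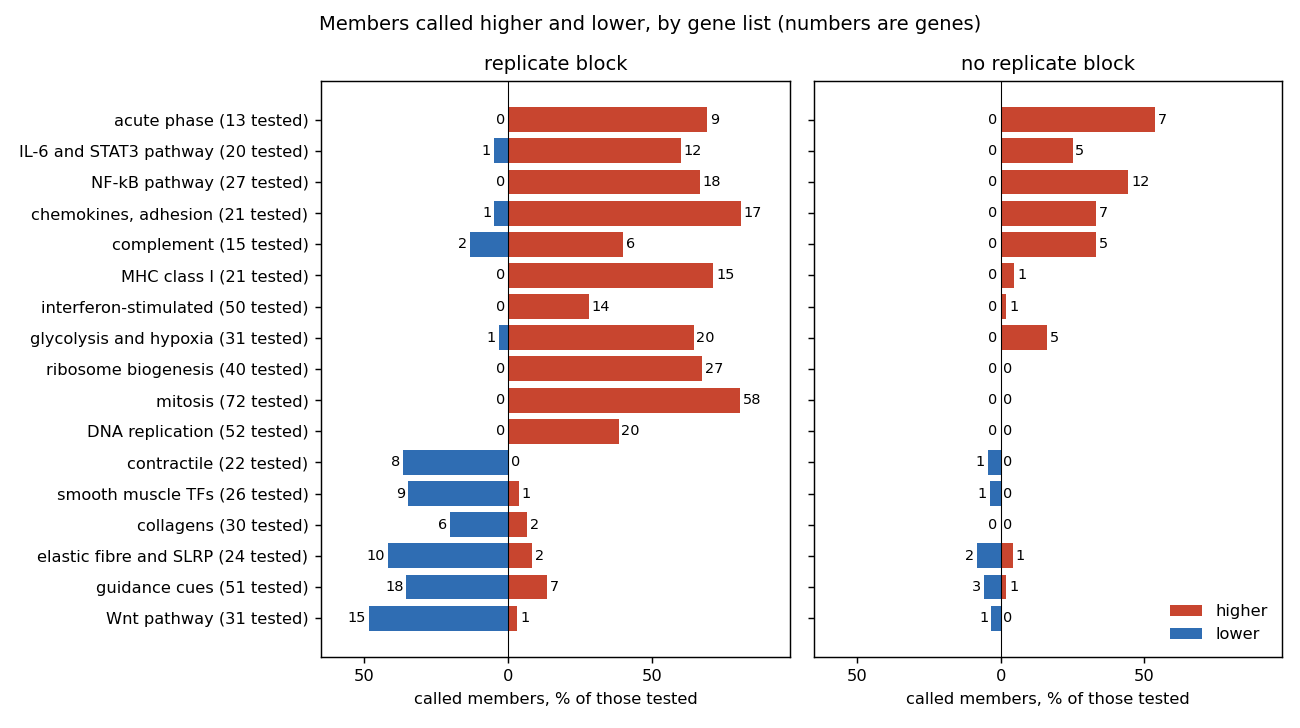
Share of tested members of 17 gene lists called higher (red, to the right) and lower (blue, to the left) at an adjusted p under 0.05, with the replicate block on the left and without it on the right. Numbers beside the bars are genes. Acute phase, NF-kB, chemokine and complement lists keep called members in both panels, whereas the 58 mitosis genes called with the replicate block are 0 without it.

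Among complement genes C3, the component on which all activation routes meet, had the largest gain. It was at 42.8, 71.9 and 125 CPM in the controls and at 2722, 3222 and 1558 CPM with overexpression (log2 fold change 5.04 ± 0.58, adjusted p 0.00763). The rise was 5.99 and 5.48 on the log2 scale in P17 and P18 and 3.64 in P19. It was called without the replicate block (adjusted p 0.00106), and without batch P19 (1.48e-07), but not without batch P17 (0.18) or batch P18 (0.366). C1s1, a serine protease of the classical pathway, went from 126, 182 and 135 CPM to 1220, 1385 and 544 CPM (log2 fold change 2.74 ± 0.23, adjusted p 0.00068), a call lost without batch P18 (adjusted p 0.258). C1ra, its partner protease, rose by 2.21 ± 0.32 (adjusted p 0.00969), and Cfb, complement factor B, by 3.22 ± 0.54 (adjusted p 0.0221). Without the P18 control or the P18 overexpression library, C1ra and Cfb were not called, with adjusted p up to 0.0715 and 0.117. Of 15 complement genes tested, 6 were called higher and 2 lower, with a median log2 fold change of 1.34. At most 1 was called lower when any 1 library was left out, and none without the replicate block or without any 1 of the batches. The number higher was 5 without the replicate block, 2 without batch P17 and 0 without batch P18. It was 2 without the P18 control, 3 without the P18 overexpression library and 9 without either P19 library.

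Part of the antigen presentation and interferon genes were called higher. Of 21 genes of MHC class I presentation, 15 were called higher, none lower and 6 not (median log2 fold change 0.77). Of 50 interferon-stimulated genes, 14 were called higher, none lower and 36 not (median 0.51). Without the replicate block 1 gene of each list was called. H2-K1, a classical class I heavy chain, went from 92.9, 222 and 336 CPM to 820, 1197 and 801 CPM (log2 fold change 2.24 ± 0.45, adjusted p 0.0343). B2m, the class I light chain, went from 699, 1013 and 1285 CPM to 1574, 2007 and 1516 CPM (log2 fold change 0.8 ± 0.21, adjusted p 0.0451). In both genes the P17 control was the lowest of the controls and the P19 control the highest, and the groups did not overlap. Class I heavy chain genes are near copies of one another, so reads may be split between them.

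The same run holds 2 libraries, from P17 and P18, of cells given a control antisense oligonucleotide instead of a plasmid. H2-K1 was at 18.3 and 16.2 CPM there, and the step to the control plasmid was not called (3.36 on the log2 scale, adjusted p 0.0729). B2m was at 203 and 165 CPM there, a step of 2.34 that was called (adjusted p 0.00533). Lgals3bp, a secreted glycoprotein induced by interferon, was at 46.2 and 48.3 CPM in the antisense controls, at 582, 1043 and 1243 CPM in the control plasmid libraries, and at 1366, 1745 and 1487 CPM with overexpression. The step from antisense to control plasmid was thus larger than the step from control plasmid to overexpression, at 4.18 (adjusted p 0.000117) against 0.73 ± 0.19 (adjusted p 0.0356) on the log2 scale. Gbp2, an interferon-induced GTPase, showed the same order, at 3.49 (adjusted p 0.00328) against 1.31 ± 0.22 (adjusted p 0.0113). Ccl5, a chemokine named after its value was seen, had no count in either antisense control, and was at 8.69, 27 and 40.2 CPM with the control plasmid and 69.8, 115 and 117 CPM with overexpression. Between control plasmid and control antisense 459 genes were called (2.99%), 363 of them higher with the plasmid (2.36%). The agent differs between those controls, and which feature of it goes with the step cannot be told apart.

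The calls of these genes were sensitive to single libraries. Without the P18 overexpression library, H2-K1, B2m, Lgals3bp, Gbp2 and Ccl5 all lost their call, and without the P18 control they did too. The number of MHC class I genes called higher ranged from 5 to 18 when 1 library was left out, lowest without the P18 overexpression library. That of interferon-stimulated genes was 2 without the P18 overexpression library, 3 without the P18 control, 8 without the P17 overexpression library, and 28 or 29 without a P19 library. Lcn2 and Zc3h12a showed no such step between the control groups: Lcn2 had 2 counts in total in the antisense controls, and Zc3h12a stood at 7.08 and 8.54 CPM there against 7.79 to 10.6 CPM with the control plasmid.

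**Figure D3:**
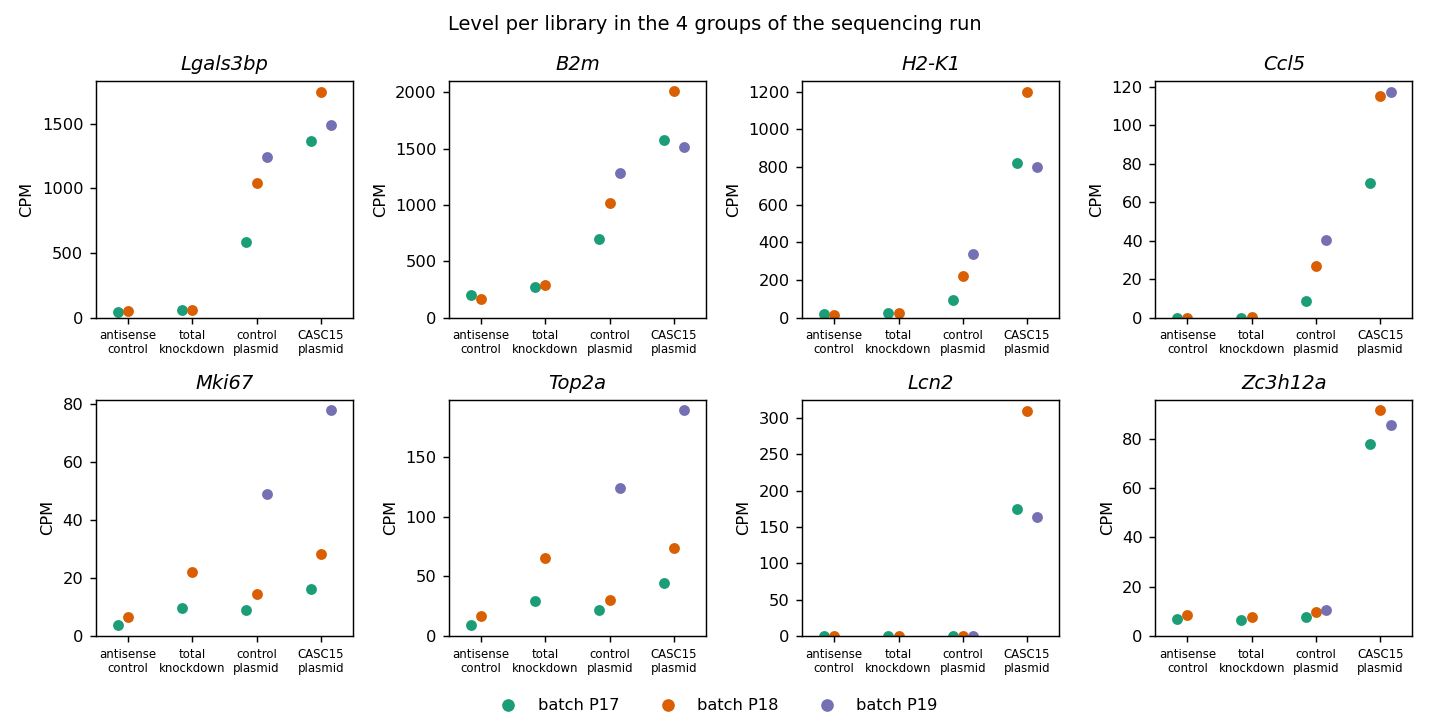
Level in CPM of 8 genes in each library of the 4 groups of the run, coloured by batch: antisense control and the group labelled total knockdown (2 libraries each), control plasmid and CASC15 plasmid (3 each). Lgals3bp, B2m, H2-K1 and Ccl5 have higher points in the control plasmid than in the antisense control libraries, a difference called for all but H2-K1 (adjusted p 0.0729), Mki67 and Top2a are highest in both P19 plasmid libraries, and Lcn2 and Zc3h12a are high only in the CASC15 plasmid libraries of these 4 groups.

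Lists of enzymes had calls in both directions, beside 9.4% higher and 8.33% lower over all genes tested. Of 16 genes of prostanoid and nitric oxide metabolism, 3 were called higher and 3 lower, and 1 each way without the replicate block. Of 34 antioxidant genes of the NRF2 type, 7 were called higher, 3 lower and 24 not (median log2 fold change 0.08), with 2 higher and none lower without the replicate block. Their share called lower was near that of all genes. The antioxidant counts were 3 to 6 and 0 to 2 when 1 library was left out, moved most by the P18 libraries and the P17 control. Nos2, the inducible nitric oxide synthase, had 6 counts in total in the controls (0, 0.165 and 0.17 CPM) and reached 6.24, 20.9 and 12.4 CPM with overexpression (log2 fold change 6.85 ± 0.42, adjusted p 9.31e-06). Sod2, the mitochondrial superoxide dismutase, went from 47.1 ± 2.11 to 110 ± 13.1 CPM, with an adjusted p of 6e-05 in edgeR. Fth1, the ferritin heavy chain that stores iron, went from 2098, 1894 and 2087 CPM to 3389, 3442 and 2914 CPM (log2 fold change 0.68 ± 0.1, adjusted p 0.00104). Aldh3a1, an aldehyde dehydrogenase abundant in these cells, rose from 1667 ± 276 to 3688 ± 797 CPM, with an adjusted p of 5.64e-05 in edgeR. All 4 were called without the replicate block. Pde3a, a phosphodiesterase that breaks down cyclic nucleotides in vascular muscle, fell from 22.5 ± 5.09 to 10.2 ± 2.1 CPM, with an adjusted p of 0.000423 in edgeR.

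Many glycolytic genes were higher. Of 31 genes of glycolysis and the hypoxia response, 20 were called higher and 1 lower, with a median log2 fold change of 0.5, and 5 were called without the replicate block. Hk2, the inducible hexokinase that traps glucose in the cell, was at 32.4, 37.3 and 51.6 CPM in the controls and at 109, 151 and 151 CPM with overexpression (log2 fold change 1.78 ± 0.17, adjusted p 0.000625). Pfkl, the liver-type phosphofructokinase, was at 144, 151 and 144 CPM and at 247, 343 and 313 CPM (log2 fold change 1.04 ± 0.11, adjusted p 0.000182). Pdk1, which restrains entry of pyruvate into the mitochondrial cycle, rose by 0.91 ± 0.11 (adjusted p 0.000517). Gapdh, an abundant enzyme, rose by 0.5 ± 0.08 from 1549 ± 78.5 CPM, which equals the median of the list. Its adjusted p was 0.00234 in edgeR (0.0568 without the replicate block), and the call was also lost without batch P17. Hif1a, the oxygen-sensing transcription factor, rose by 0.75 ± 0.14 (adjusted p 0.00614), a call lost without the P18 control (0.0547) and without the replicate block (0.168).

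**Figure D4:**
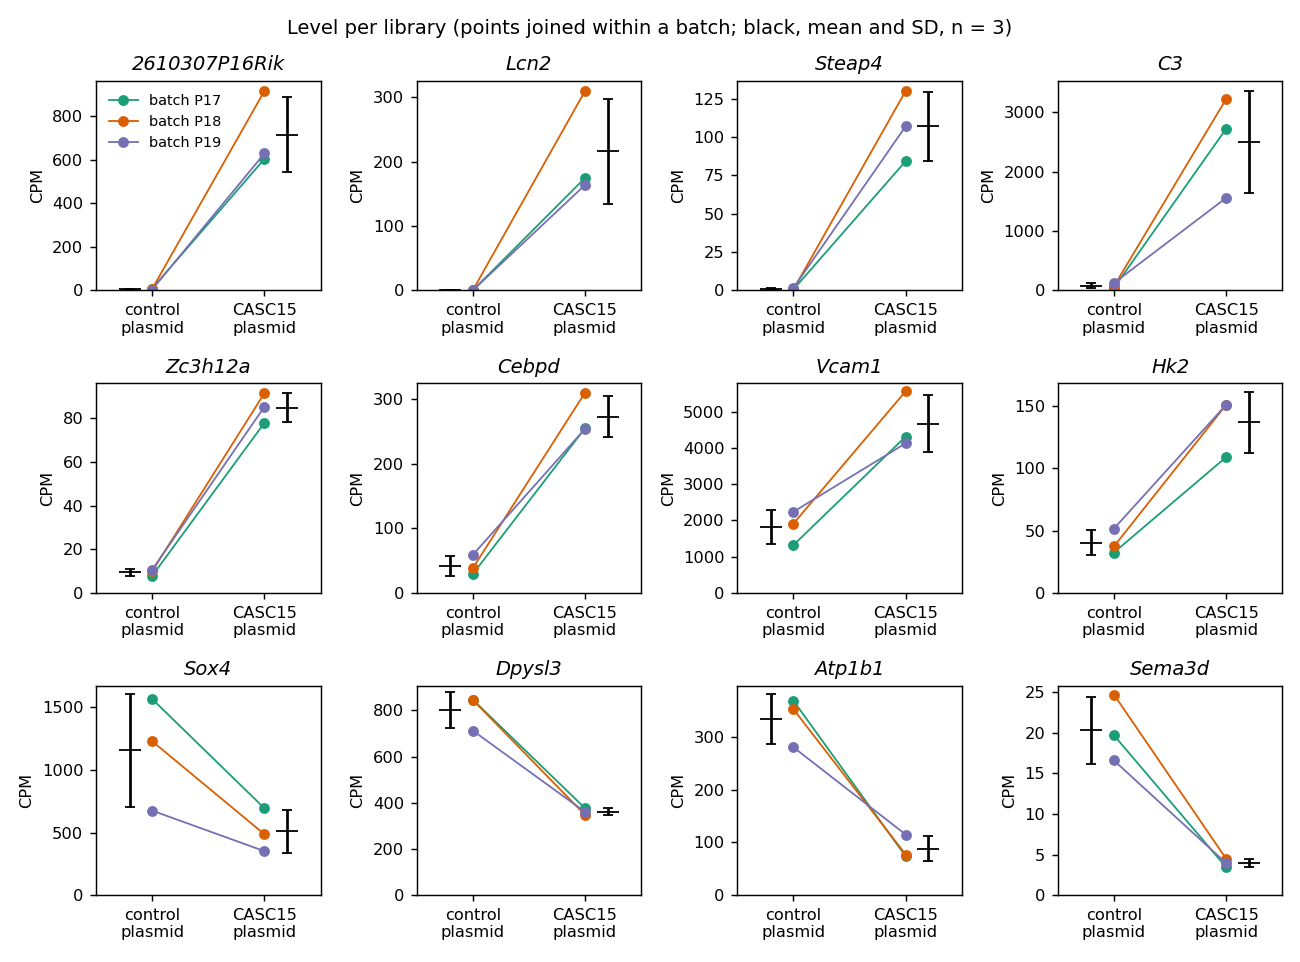
Level in CPM (vertical axes, from 0) of 12 genes in each of the 6 libraries, with the control and overexpression library of a batch joined by a line and the mean with its SD (n = 3) in black. Lines rise in all batches for the first 8 genes and fall in all batches for Sox4, Dpysl3, Atp1b1 and Sema3d.

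Many cell cycle genes were higher with overexpression within batches. Of 72 mitosis genes, 58 were called higher and none lower (median log2 fold change 0.74), and of 52 DNA replication genes, 20 were called higher and none lower (median 0.41). In 65 of the 72 and 32 of the 52 the overexpression library was above its control in all 3 batches. The share of all tested genes with this pattern was not counted. None of either list was called without the replicate block. Mki67, a marker of dividing cells named after its value was seen, was at 9.19, 14.6 and 49 CPM in the controls and at 16.4, 28.3 and 77.9 CPM with overexpression (log2 fold change 0.81 ± 0.11, adjusted p 0.000808). Top2a, the topoisomerase that untangles chromosomes, was at 21.5, 30.4 and 124 CPM and at 44.6, 74 and 189 CPM (log2 fold change 0.96 ± 0.14, adjusted p 0.00264). In both genes the P19 control was above the P17 and P18 overexpression libraries. A change in the share of dividing cells and a change in transcript per cell cannot be told apart in bulk RNA.

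Mcm5, a subunit of the replicative helicase, rose by 0.83 ± 0.12 (adjusted p 0.000953), and Mcm6 by 0.55 ± 0.11 (adjusted p 0.00767). Their adjusted p values without the replicate block were 0.706 and 0.319. Aurka, a spindle kinase, rose by 0.97 ± 0.21 (adjusted p 0.00884), but its adjusted p reached 0.0568 when the P17 or the P18 control was left out. The number of mitosis genes called was 27 to 51 when 1 library was left out, lowest among the P17 and P18 libraries, and that of DNA replication genes 10 to 16. Without batch P17 both numbers were below these ranges. Of 22 cyclins, kinases and inhibitors of the G1 phase, 7 were called higher and 5 lower (median log2 fold change 0.08), and none without the replicate block. These counts were 4 to 8 and 3 to 4 when 1 library was left out, moved most by the P17 and P18 libraries. Cdkn1b, which encodes the inhibitor p27, fell by 0.37 ± 0.07, and Rb1, the retinoblastoma protein gene, by 0.45 ± 0.09 (adjusted p 0.00537 and 0.00553). Their adjusted p without the replicate block was 0.306 and 0.14. Cdk6 rose from 49.6 ± 11.1 to 83.5 ± 12.4 CPM, with an adjusted p of 0.000182 in edgeR (0.061 without the replicate block). Myc, a driver of growth and ribosome production, rose from 66.4 ± 20.1 to 123 ± 15.6 CPM, with an adjusted p of 0.00167 in edgeR (0.132 without the replicate block).

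Among the genes that fell, Sema3d had one of the largest and most even changes. It encodes a secreted semaphorin, a guidance cue for axons and vascular cells. Its level was 19.7, 24.7 and 16.6 CPM in the controls and 3.44, 4.49 and 3.95 CPM with overexpression (log2 fold change -2.35 ± 0.17, adjusted p 1.04e-05). Sema5a, a membrane semaphorin, fell from 63.8, 61.1 and 42.9 CPM to 20.4, 27.4 and 12.7 CPM (log2 fold change -1.51 ± 0.12, adjusted p 3.33e-05). Sema3e fell by 1.77 ± 0.43 with an adjusted p of 0.0495, and lost its call when any of the 4 P17 and P18 libraries was left out (0.219 at most) and without the replicate block (0.0637). Sema3c, which acts in vascular and cardiac development, went the other way, from 523, 584 and 489 CPM to 1127, 1372 and 773 CPM (log2 fold change 1 ± 0.12, adjusted p 0.000304). Of 51 guidance genes, 18 were called lower and 7 higher (median log2 fold change -0.12). The number lower was 7 to 18 when 1 library was left out, moved most by the P17 and P18 libraries, and 3 without the replicate block. The number higher was 3 to 7 when 1 library was left out, moved most by the P17 control and the P18 libraries, and 1 without the replicate block. Dpysl3, a cytoskeletal phosphoprotein known from growing axons, fell from 847, 846 and 713 CPM to 377, 348 and 361 CPM (log2 fold change -1.14 ± 0.08, adjusted p 1.37e-05). Its overexpression libraries lay close together and well below every control.

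Wnt pathway genes were lower more often than higher. Of 31 tested, 15 were called lower and 1 higher, with a median log2 fold change of -0.38. Fzd1, a Frizzled receptor, fell from 86.1, 115 and 114 CPM to 54.2, 56 and 54 CPM (log2 fold change -0.93 ± 0.09, adjusted p 9.2e-05), and was the 1 Wnt gene called without the replicate block. Fzd2 fell by 0.57 ± 0.09 (adjusted p 0.00155, and 0.0661 without the replicate block). The ligand Wnt5b went from 22.2, 14.2 and 2.49 CPM to 5.64, 3.53 and 2.08 CPM (adjusted p 0.011). The P19 libraries differed little for Wnt5b, and the call was lost when any of the P17 and P18 libraries was left out (0.0758 at most). The number of Wnt genes called lower was 7 to 13 when 1 library was left out, again moved most by the P17 and P18 libraries.

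Counts of matrix genes stand beside 9.4% higher and 8.33% lower over all genes tested. Of 33 matrix glycoproteins, 9 were called higher and 6 lower (median log2 fold change 0.14), and of 25 genes of collagen maturation, 6 were called higher and none lower (median 0.16). Without the P17 control the number of collagen maturation genes called higher was 2. The number of glycoproteins called lower was 2 to 5 when 1 library was left out, moved most by the P18 control and the P17 overexpression library. In these lists 1 gene was called without the replicate block. Of 30 collagen genes, 6 were called lower and 2 higher, and the median log2 fold change was -0.09. The share called higher was below that of all genes. Without the P18 control 3 were called lower, without the P17 control or the P17 overexpression library 1 higher, and none in either direction without the replicate block. Col3a1, a fibrillar collagen of the vessel wall, went from 67.3, 46.1 and 26.5 CPM to 20.7, 10.9 and 10.7 CPM (log2 fold change -1.71 ± 0.17, adjusted p 0.000532, and 0.127 without the replicate block). The groups did not overlap, which was a condition of the rule that named Col3a1 among the largest falls. Col1a1, the most abundant collagen, was at 2123 ± 461 CPM in the controls and 2137 ± 566 CPM with overexpression and was not called in edgeR (adjusted p 0.999).

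Of 24 genes of elastic fibres and small leucine-rich proteoglycans, 10 were called lower and 2 higher (median log2 fold change -0.13). Ogn, which encodes the proteoglycan osteoglycin, went from 402, 381 and 462 CPM to 204, 186 and 175 CPM (log2 fold change -1.14 ± 0.12, adjusted p 0.000261). Prelp, another of the class and named after its value was seen, fell by 1 ± 0.09 (adjusted p 6.17e-05, and 0.104 without the replicate block). Bgn, which encodes biglycan, the most abundant of them, was at 2770 ± 271 CPM in the controls and 2926 ± 466 CPM with overexpression, with an adjusted p of 0.72 in edgeR. Hmcn1, a large basement membrane protein, had a large but uneven fall, from 23.8, 28.2 and 7.43 CPM to 1.7, 3.35 and 3.12 CPM (log2 fold change -2.73 ± 0.51, adjusted p 0.0221). It lost its call without either the P17 or the P18 control, or the P18 overexpression library (0.137 at most). The number of these genes called lower was 3 to 8 when 1 library was left out, moved most by the P17 and P18 libraries, and 2 without the replicate block.

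Matrix proteases split. Of 30 tested, 7 were called higher and 9 lower, the latter 4 to 7 when 1 library was left out, moved most by the P17 and P18 controls. Without the replicate block 2 were called higher and 1 lower. Mmp19, a secreted matrix metalloproteinase, rose from 12.6 ± 1.27 to 35.8 ± 10.9 CPM, with an adjusted p of 5.64e-05 in edgeR. Mmp15, a membrane-bound one, fell from 22.7, 29 and 17.8 CPM to 9.39, 9.33 and 10.2 CPM (log2 fold change -1.24 ± 0.14, adjusted p 0.000217). Both passed without the replicate block. The collagenase Mmp13 rose by 2.04 ± 0.24 (adjusted p 0.00223, 0.41 without the replicate block, 0.132 without batch P17 and 0.101 without batch P18), from 3.92, 8.69 and 45.5 CPM to 20, 54.3 and 117 CPM.

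Contractile genes were lower where they were called. Of 22 tested, 8 were called lower, with a median log2 fold change of -0.3, and 1 without the replicate block. That gene was Myl9, the regulatory light chain of smooth muscle myosin, which went from 5.45, 6.66 and 4.71 CPM to 1.95, 2.15 and 2.7 CPM (log2 fold change -1.3 ± 0.2, adjusted p 0.00127). Ckb, the brain-type creatine kinase, fell by 1.55 ± 0.09 (adjusted p 3.43e-06, and 0.0597 without the replicate block). Itga8, an integrin of mesenchymal cells, fell by 1.79 ± 0.23 (adjusted p 0.000537, and 0.166 without the replicate block). Acta2, the smooth muscle actin, was at 126, 165 and 441 CPM in the controls and at 181, 198 and 383 CPM with overexpression, with no call (adjusted p 0.311). It was higher with overexpression in P17 and P18 and lower in P19. Of other cytoskeletal genes, Vim, which encodes vimentin, lost the most CPM, from 9109, 7767 and 6841 to 6892, 5287 and 5174 (log2 fold change -0.45 ± 0.1, adjusted p 0.00935). Its call was lost without the P17 control or the P18 overexpression library (0.0532 at most) and without the replicate block (0.235). Actg1, cytoplasmic gamma actin, fell by 0.6 ± 0.09 (adjusted p 0.00125, 0.125 without the replicate block and 0.0518 without batch P17).

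Of 26 transcription factors tied to the smooth muscle state, 9 were called lower and 1 higher (median log2 fold change -0.15). Tbx18, a factor of mural and epicardial lineages, went from 67.1, 69 and 63.4 CPM to 44.7, 41.9 and 45.9 CPM (log2 fold change -0.59 ± 0.11, adjusted p 0.0063) and was the 1 called without the replicate block. Klf4, a repressor of contractile genes, was the 1 called higher, by 0.47 ± 0.1 (adjusted p 0.00732, 0.278 without the replicate block, 0.179 without batch P17 and 0.0513 without batch P18). Hey2, a Notch target, fell by 1.51 ± 0.19 (adjusted p 0.000453, and 0.628 without the replicate block), with 1.76, 1.98 and 32.4 CPM in the controls and 0.599, 0.778 and 11 CPM with overexpression. The spread of Hey2 between batches was wider than the change. The number of factors called lower was 4 to 7 when 1 library was left out, moved most by the P18 libraries and the P17 overexpression library.

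Of 33 genes of ion channels and calcium handling, 7 were called higher and 9 lower, and 1 and 3 without the replicate block. The number higher was 2 to 6 when 1 library was left out, moved most by the P17 and P18 libraries. Atp1b1, the beta subunit of the sodium pump, went from 368, 352 and 280 CPM to 73.9, 77.2 and 115 CPM (log2 fold change -1.93 ± 0.2, adjusted p 0.00124). Piezo2, a channel gated by membrane stretch, fell from 13.3 ± 2.79 to 4.92 ± 0.39 CPM, with an adjusted p of 0.000153 in edgeR. Kcnj2, an inward rectifier potassium channel, rose from 4.08 ± 1.9 to 17.3 ± 1.06 CPM, with an adjusted p of 0.000506 in edgeR. Enpp1, which makes the mineralisation inhibitor pyrophosphate, fell from 14.3, 14.9 and 5.73 CPM to 2.05, 2.51 and 2.34 CPM (log2 fold change -2.27 ± 0.26, adjusted p 0.000606). The control of P19 was the lowest control, and still above each overexpression library. Atp1b1 and Enpp1 lost their calls when batch P18 was left out.

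Of 46 growth factors and receptors, 10 were called higher and 11 lower, and 1 each way without the replicate block. When 1 library was left out the counts were 6 to 8 and 5 to 11, moved most by the P17 and P18 controls and the P17 overexpression library. Vegfc, a growth factor for lymphatic vessels, was even in the controls at 7.34, 7.21 and 7.54 CPM and reached 50.9, 60.2 and 27.6 CPM with overexpression (log2 fold change 2.59 ± 0.25, adjusted p 0.000612). Pdgfa, a mitogen for mesenchymal cells, fell from 71, 74.8 and 64.2 CPM to 34.1, 37.4 and 40.6 CPM (log2 fold change -0.91 ± 0.09, adjusted p 7.77e-05). Pdgfrb, the main PDGF receptor of smooth muscle, was at 380 ± 90.3 and 391 ± 80.6 CPM and was not called in edgeR (adjusted p 0.726). Kit rose by 1.08 ± 0.13 and its ligand Kitl fell by 0.99 ± 0.09 (adjusted p 0.00032 and 4.14e-05), with adjusted p of 0.415 and 0.209 without the replicate block. Fam135b, Fam180a and Tmem158 were also among the larger falls. Fam135b went from 9.5 ± 0.57 to 2.33 ± 0.41 CPM, Fam180a from 10.1 ± 1.02 to 2.83 ± 0.84 CPM, and Tmem158 from 27.9 ± 4.88 to 8.65 ± 0.9 CPM. All 3 passed in both fits, with edgeR adjusted p of 7.09e-05, 0.000186 and 1.19e-05.

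**Figure D5:**
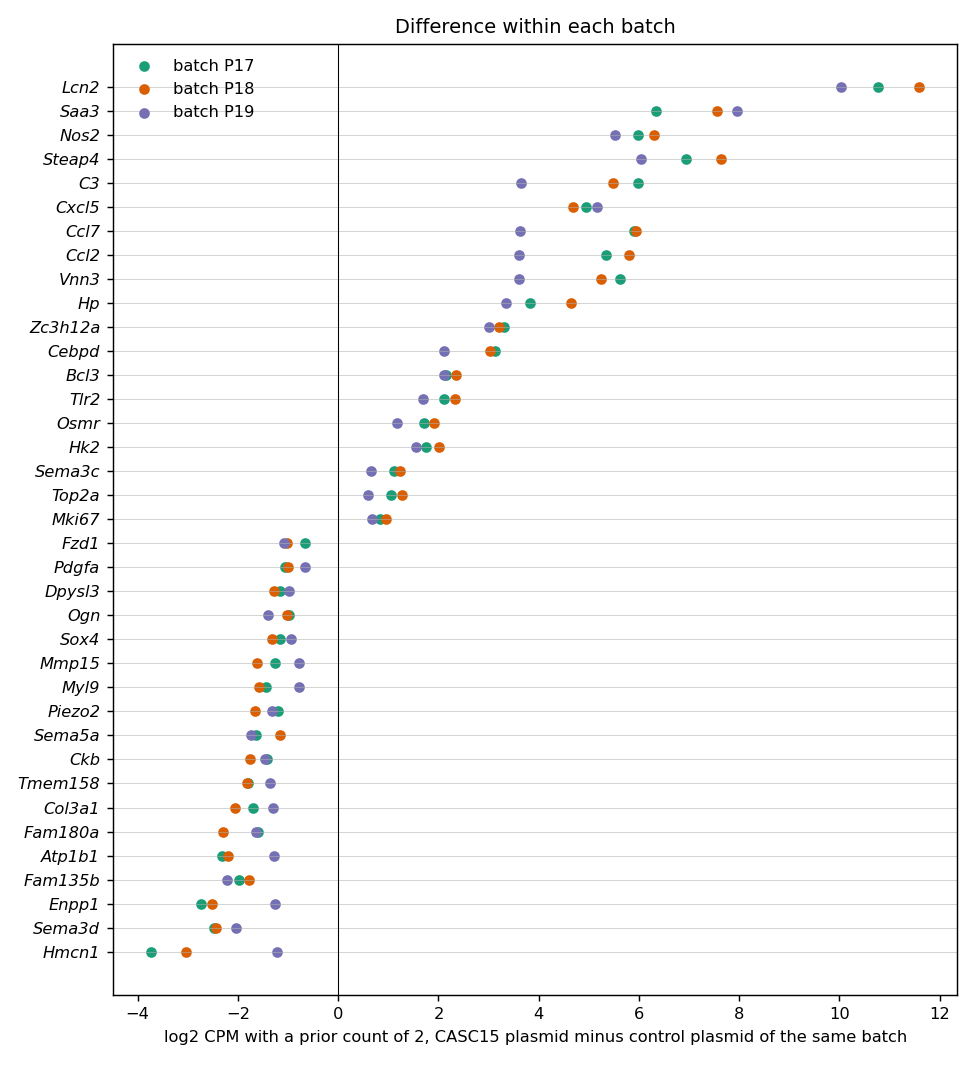
Log2 difference between the overexpression and the control library of the same batch for 37 named genes (rows), 1 point per batch, on log2 CPM with a prior count of 2. Every point lies on the side of its gene's call, and for most of the genes with large rises the P19 point is the smallest or near it, with Saa3 and Cxcl5 as exceptions.

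Markers of other cell types were summed, since inflammatory transcripts can come from immune cells. The summed level of 10 neutrophil markers was 0.045 to 0.113 CPM in the controls and 0.179 to 0.364 CPM with overexpression, and Elane, Ly6g, Mpo, Ngp and S100a9 had no count in any of the 6 libraries. The 12 macrophage markers summed to 1.08 to 1.7 CPM in the controls and 0.598 to 2.55 CPM with overexpression, with Adgre1, C1qa and Tyrobp at 0. Of the 3 macrophage markers tested 1 was called higher, Csf1r, a growth factor receptor named after its value was seen. It had 2 counts in total in the controls and 18 with overexpression, with an adjusted p of 0.0418 in edgeR. The call was lost when any 1 library was left out (0.172 at most) and without the replicate block (0.133). The 10 lymphocyte markers summed to 0.55 to 0.964 and 0.2 to 1.2 CPM, and the 12 endothelial markers to 3.29 to 5.72 and 3.38 to 4.61 CPM. Smooth muscle markers summed to 701 to 847 CPM in the controls and 841 to 914 CPM with overexpression. Fibroblast markers summed to 1131 to 1824 and 1596 to 2157 CPM, with Tcf21 and Thy1 at 0. Neural and glial markers summed to 21.5 to 23.2 CPM and 9.81 to 14.4 CPM, with all 3 tested called lower, S100b and Tubb3 among them. Adipocyte markers summed to 8.96 to 14.5 CPM in the controls and 6.55 to 9.24 CPM with overexpression, with Pparg called lower of 1 tested. Chondrocyte markers summed to 135 to 246 and 106 to 194 CPM, with Sox9 called lower of 5 tested. In every batch the adipocyte, chondrocyte, and neural and glial sums were lower with overexpression, and the neutrophil and fibroblast sums were higher. All 10 neutrophil markers had at most 3 counts in each library compared. Epithelial markers summed to 203 to 277 and 208 to 245 CPM, with Cdh1 called higher and Krt19 lower of 4 tested. Skeletal muscle markers summed to 0.55 to 1.7 and 0.599 to 1.2 CPM with no call. Of 11 smooth muscle markers tested, Rgs5 was called higher and Itga8 lower, and of 8 fibroblast markers, Pdgfra was called higher and Pi16 and Lum lower. No marker of these lists was called without the replicate block. Of these, Rgs5, Pdgfra and Pi16 were named after their values were seen. The part of these markers in the results was not tested.

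The run also holds 2 libraries labelled total CASC15 knockdown and their 2 antisense controls, from P17 and P18. These share no library with the overexpression comparison. In the libraries labelled total knockdown 2610307P16Rik was at 9.73 and 8.29 CPM, against 7.66 and 6.37 CPM in their controls (log2 fold change 0.35, adjusted p 0.528), so the targeted RNA was not lower there in this table. The overexpression effect differed from the effect in those libraries in 1445 genes (9.41%), tested as an interaction in the same edgeR fit. The count was 189 without the replicate block, 486 without batch P17 and 262 without batch P18. It was 394 without the P18 library labelled total knockdown, 661 and 702 without the P17 and P18 antisense controls, and 840 and 879 without the P17 and P18 control plasmid libraries. Counts of differences by list were made with the replicate block in all 10 libraries. Of the 1445, 551 had the more positive effect with overexpression and 894 the more negative. The knockdown label called 2209 genes (14.4%), and 633 genes were called in both comparisons, 23.3% of the overexpression calls and 28.7% of the others. Of the 633, 534 had the same direction in both and 99 opposite directions.

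In 14 of the 27 NF-kB genes the difference was called, and in all 14 the overexpression effect was the more positive. For Nfkbia the effect was 1.68 with overexpression and -0.3 with the knockdown label, a difference of 1.98 ± 0.15 (adjusted p 6.56e-05). Nfkb1 moved in opposite directions, by 0.78 and -0.8, a difference of 1.57 ± 0.145 (adjusted p 0.000214). Tbx18 did as well, with -0.59 against 0.91, a difference of -1.5 ± 0.18 (adjusted p 0.00106), and so did Cdk6, with 0.76 against -0.83 and a difference of 1.59 ± 0.14 (adjusted p 0.000137). Zc3h12a rose by 3.18 with overexpression and stood at -0.12 with the knockdown label (difference 3.3 ± 0.16, adjusted p 2.56e-06).

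Of the 72 mitosis genes, 58 were called higher with overexpression and 62 with the knockdown label (14.4% of all genes were called there in either direction). In 26 of 72 the difference was called, in 25 of them with the larger rise under the knockdown label. The median log2 effect over the list was 0.74 with overexpression and 1.58 with the knockdown label. Mki67 had effects of 0.81 and 1.57, a difference of -0.76 ± 0.19 (adjusted p 0.0321). Several genes of matrix and guidance fell under both labels. Ogn had effects of -1.14 and -1.07 (difference -0.07 ± 0.19, adjusted p 0.882), and Sema5a of -1.51 and -1.25 (difference -0.26 ± 0.18, adjusted p 0.428). Col3a1 had effects of -1.71 and -1.36 (difference -0.35 ± 0.26, adjusted p 0.465). The effect on Sox4 was -1.15 with overexpression and -0.13 with the knockdown label, a difference of -1.02 ± 0.145 (adjusted p 0.00186).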

How the data were processed

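Bulk RNA-seq of run 2 was used: 10 libraries in 4 groups and batches P17 to P19, of which 6 are compared here. The deposited values are expected counts per gene, which need not be whole and were rounded here. Per the submitters' processing notes, STAR 2.7.11b and RSEM 1.3.1 were used, and the builds GRCm39 and mm10 are both named. The annotation, the strand setting and which build made this table are not given in the sources used here. Without strand, overlapping and antisense genes cannot be told apart.

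Genes were filtered with filterByExpr (minimum count 10, minimum total 15) and scaled by TMM, and edgeR 4.0.16 in R 4.3.3 fitted group and batch in all 10 libraries, which share 1 estimate of the spread. Every adjusted p comes from the quasi-likelihood test of edgeR, adjusted over all tested genes by the Benjamini-Hochberg method, with calls at 0.05. The batch is a replicate block because the labels give it as a batch. Same-numbered libraries also deviated together (correlation 0.304 to 0.669 for the same number, -0.582 to 0.267 for other numbers). Deviations from a group mean sum to 0, so these ranges are not independent of each other. On simulated data with 2-fold changes in this comparison (15019 genes), the block recovered 149 of 194 changed genes (76.8%) with 16 false calls. The fit without it recovered 46.4% with 1. Those counts were drawn from the fit with the block, batch effects included, so its higher recovery was built in. The planted changes were also far fewer than the genes called here. The simulation therefore cannot show which fit suits the real data. Gene symbols came from a reference table. Intervals cover counting error only.

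Named genes are the target and Sox4, the largest called changes (10 each way, at least 5 CPM, groups not overlapping, same direction in every batch), the 5 largest gains and losses in mean CPM, and from each of the lists up to 4 called members each way and the 3 most abundant. Genes outside this are said to be named after their values were seen. The members and lists were chosen with earlier results of these data known. Alternatives were no block, DESeq2 1.42.0, RLE scaling, other filters, the 6 libraries alone, and leaving out each library, and, added after seeing the data, each batch. Results for some genes are not reported here.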

Additional observations from a re-analysis of the deposited data

How the results depend on the processing

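Without the replicate block the overexpression comparison called 253 genes in place of 2721, and the difference from the libraries labelled total knockdown 189 in place of 1445. The cause was not tested beyond the batches' own spread, which the block removes. Leaving out 1 library gave 1284 to 2624 genes for overexpression and 394 to 1600 for the difference, and fewer samples enter those fits. Leaving out batch P17 gave 866 and 486, and batch P18 1150 and 262. These 2 alternatives were chosen after seeing the data. A further minimum change of 1 on the log2 scale left 584 genes. With no filter on low counts the difference was called in 2238 genes. DESeq2, RLE scaling, a mean of at least 1 CPM and the 6 libraries alone moved neither count by over 1.5 times where they gave one. The log2 fold change of the targeted RNA was 6.58 to 7.15 when 1 library was left out, and 6.62 without batch P18, with an adjusted p of 0.0556 in edgeR. Of 118 named genes that were called, all kept their direction under every alternative run that tested them (Csf1r was too low to be tested in 2 of them). Of these, 61 were called without the replicate block, 115 with DESeq2, 102 to 117 when 1 overexpression or control library was left out, 89 without batch P17 and 88 without batch P18. Uncalled genes near 0 changed sign: Col1a1 was 0.01 without the replicate block, 0.07 without batch P18, and -0.05 to 0.05 when 1 library was left out. Bgn was -0.02 without batch P17 and -0.05 to 0.19 when 1 library was left out, and Cxcl12 0.06 without batch P19 and -0.2 to 0.06 when 1 library was left out. Depth limits genes of few counts, such as Saa3 and Nos2 in the controls, whose fold changes are imprecise.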

Other observations

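Over all genes tested 9.4% were called higher and 8.33% lower with overexpression. Of 40 genes of ribosome biogenesis, 27 were called higher and none lower, with a median log2 fold change of 0.35 against 0.002 for all genes. Mybbp1a, a nucleolar regulator of ribosomal RNA synthesis, was at 294, 316 and 304 CPM in the controls and at 384, 394 and 388 CPM with overexpression (edgeR adjusted p 0.00691, 0.0909 without the replicate block and 0.208 without batch P17). Rcl1, which acts in processing of ribosomal RNA, went from 25.6 ± 1.67 to 38.7 ± 5.05 CPM (SD, n = 3), with an adjusted p of 0.00102 in edgeR. In both genes the groups did not overlap. None of the list was called without the replicate block, and 17 to 22 were called when 1 library was left out. Fewer still were called without batch P17.

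Of 23 genes of the Hippo pathway and its targets, 6 were called lower and 1 higher, and none without the replicate block. The number higher was 0 to 2 when any 1 library was left out. Tead2, a transcription factor that pairs with YAP, was at 176, 147 and 80.2 CPM in the controls and at 92.1, 60.3 and 50.6 CPM with overexpression (edgeR adjusted p 0.000506, and 0.163 without the replicate block). Fat4, an atypical cadherin, fell by 1.52 ± 0.14 on the log2 scale (edgeR adjusted p 5.64e-05, and 0.217 without the replicate block). The group ranges of both overlapped. Of 32 immediate early genes, 8 were called higher, 2 lower and 22 not, and 1 higher without the replicate block. These counts were 5 to 7 and 0 to 4 when 1 library was left out, moved most by the P18 libraries. The 1 gene was Btg1, which restrains growth and rose from 255 ± 23.3 to 459 ± 46.6 CPM (SD, n = 3) and passed in both fits (edgeR adjusted p 0.000193 and 0.00717). Nqo1, a quinone reductase among the 34 antioxidant genes, of which 7 were called higher and 3 lower, fell by 0.44 ± 0.09 (edgeR adjusted p 0.00803, 0.242 without the replicate block and 0.117 without batch P17).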
